A study of Mus musculus with 2 samples.

Results

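Rasgrp1, Rasgrp2, Gmfg, Gmfb, Rap1a, Rap1b, Coro1a and Cfl1 are 8 of the 32285 features counted in 2 single-cell libraries of YFP+ mouse thymus cells. They join the RasGRP exchange factors and the Rap1 GTPases to regulators of the actin cytoskeleton. The genes were chosen by the ratios between the libraries, around Rasgrp2 and Gmfg, already seen to be lower in the mutant library, so all ratios given for them are descriptions and carry no test. The question was whether the lower levels of these 2 genes were confined to T cells. All 8 genes were measured in each of 5 cell classes.

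The control library came from Tbx21Cre Rosa26-YFP+ mice, and the second library, called cKO, from Tbx21Cre Ets1F/F Rosa26-YFP+ mice, in which the transcription factor gene Ets1 carries floxed alleles. Both genotypes share the Tbx21Cre driver and the Rosa26-YFP reporter, so by design deletion is aimed at cells with a history of Tbx21 promoter activity. Its extent was not measured here. Each library pooled the thymus cells of 2 mice, sorted for YFP, and each genotype had 1 library, so differences between mice cannot be seen and no test between genotypes was possible. The sources used here do not give the animals' ages.

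RasGRP proteins are guanine nucleotide exchange factors. RasGRP1 is recruited to membranes by diacylglycerol, the lipid made when phospholipase C acts after antigen receptor ligation. RasGRP1 loads Ras and so feeds the ERK pathway in T cells, whereas RasGRP2, also called CalDAG-GEFI, acts mainly on Rap1, whose active form turns on integrins in platelets and leukocytes. Downstream, the actin network is branched by the Arp2/3 complex, debranched by glia maturation factors (Gmfb broadly, Gmfg mainly in blood cells), severed by cofilin (Cfl1) and bound by coronin 1A (Coro1a), which is needed for T cell survival and migration.

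Sequences before a RefSeq start of Gmfg and of Rasgrp2 are shown because these 2 genes carry the largest differences. A second reason is that Ets1, the gene targeted in the cKO mice, encodes a factor whose family binds GGAA. They are RefSeq promoter entries (GRCm38.p6), trimmed to the part outside annotated exons, 5′ to 3′ on the plus strand, with GGAA or its complement TTCC in capitals. An entry was found for 7 of the 8 genes.
Gmfg, chr7:28437219-28437446: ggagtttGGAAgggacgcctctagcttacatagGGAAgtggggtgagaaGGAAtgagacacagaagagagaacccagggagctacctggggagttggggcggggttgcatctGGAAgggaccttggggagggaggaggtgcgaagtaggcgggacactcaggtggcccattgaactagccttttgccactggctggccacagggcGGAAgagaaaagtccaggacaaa
Rasgrp2, chr19:6399625-6399745: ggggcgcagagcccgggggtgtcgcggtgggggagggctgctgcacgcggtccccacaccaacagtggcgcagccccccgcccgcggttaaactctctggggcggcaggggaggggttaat
Both genes have a second entry at a later start, and the entries of the earlier RefSeq start are shown. The Rasgrp2 stretch lies inside the GENCODE gene span, which starts at chr19:6399340, so bases before that start were not searched. The Gmfg stretch holds 5 GGAA and no TTCC, and the Rasgrp2 stretch holds neither. The second entries, chr7:28440687-28440936 for Gmfg and chr19:6401455-6401704 for Rasgrp2, hold 3 GGAA with 2 TTCC and 1 GGAA with 2 TTCC. GGAA or TTCC occurred in 93.4% of 32851 RefSeq windows of 250 bases before a start, on either strand. The longer CCGGAAG, which contains GGAA, or its complement CTTCCGG occurred in 6.91% of windows, in neither stretch shown, and 1 time in the second Rasgrp2 entry. Such matches describe letters and do not show that a factor binds there.

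In GRCm38 with GENCODE vM21, Rasgrp2 spans chr19:6399340-6415216 on the plus strand and Gmfg spans chr7:28437447-28448233 on the plus strand. Both spans overlap an antisense gene, Gm14965 for Rasgrp2 and Samd4b for Gmfg, and the sources used here do not say whether the counting used strand. Gm14965 had 2 UMIs in control and 0 in cKO CD3+ Cd8b1-negative T cells. The annotated copies Gmfg-ps and Rap1a-ps2 make the counts of Gmfg and Rap1a less certain. None of the nearest genes at either locus differed by the size rule given with the cell classes. In CD3+ Cd8b1-negative T cells, Paf1 beside Gmfg, which encodes a subunit of an elongation complex, stood at 29.5 CPM in the control library and 30.4 CPM in cKO, and Lrfn1 at 0.337 and 0.182 CPM. Beside Rasgrp2, Pygm, muscle glycogen phosphorylase, stood at 0.936 and 0.639 CPM, and Nrxn2 at 0 and 1 UMI.

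The control library held 10102 barcodes and the cKO library 11206, with 35210431 and 39979742 UMIs. Of these, 7395 control and 5903 cKO cells had at least 500 genes and at most 10% mitochondrial UMIs, with medians of 2666 and 5533 UMIs, and 29 barcode sequences occurred in both libraries. More than 10% mitochondrial UMIs were found in 6.76% of control and 28.6% of cKO barcodes. The cKO library also held 1534 kept barcodes with Epcam, an epithelial gene, and no UMI of Ptprc, CD3 or Cd79a, against 1 in control. All 8 markers of gut and other epithelium, Agr2 and Zg16 among them, were detected in these cKO barcodes and summed to 39943 CPM. Which tissue they came from was not tested. A difference in tissue between the libraries cannot be told apart from genotype. The study names its samples thymic iNKT1 cells. A UMI of Trav11, the segment of the invariant receptor, together with one of CD3 was seen in 177 control and 149 cKO cells. The counts are 3′ tags and may miss this segment, so these numbers do not give the share of iNKT cells.

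Cells were classed by single UMIs of gating genes, and the classes overlap. CD3+ Cd8b1-negative T cells numbered 6236 in control and 2976 in cKO, CD8 T cells (CD3 and Cd8b1) 907 and 621, NK cells (Ncr1 and no CD3) 105 and 53, and B cells (Cd79a) 308 and 481. Levels are CPM, the UMIs of a gene scaled to all UMIs of its class, and brackets give 95% intervals for counting error only, since PCR and differences between mice are not covered. A gene passed the size rule when 3 conditions held: a difference of at least 1.5-fold, a level of at least 20 CPM in one of the libraries, and a ratio interval without 1. In the alternative setting that weighed every cell the same, no interval was computed, so its calls used fold and level alone. In CD3+ Cd8b1-negative T cells, Ets1 was at 524 CPM in control and at 168 CPM in cKO, a 3.13-fold lower level (3.02 to 3.24). It was 4.63-fold lower in NK cells, 2.43-fold lower in the B class and 2.08-fold lower in CD8 T cells. The B class holds many cells with CD3 UMIs, more of them in control. Among its cells with no CD3 UMI, thinned to 1500 UMIs, Ets1 was found in 22.9% (10.4 to 40.1) of control cells. The cKO share was 21.9% (16.6 to 28.0), so the intervals overlap. The counts are 3′ tags and the floxed exons are not named in the labels, so they need not measure the deletion itself.

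In CD3+ Cd8b1-negative T cells, the largest class, Rasgrp2 stood at 64.0 CPM (61.0 to 67.1) in the control library and 12.3 CPM (10.9 to 13.9) in cKO. The cKO level was 5.19-fold lower (4.57 to 5.93). For Gmfg the control level was 319 CPM (312 to 325) and the cKO level 58.1 CPM (55.0 to 61.4), 5.48-fold lower (5.17 to 5.82). The intervals of both genes lie far apart between the libraries. From the lowest ratio upward, Gmfg ranked 16 and Rasgrp2 19 among 5964 features measured in this class, which restates the reason these genes were chosen.

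Rasgrp1 went the other way in the same cells. It stood at 92.7 CPM (89.1 to 96.4) in the control library and 242 CPM (236 to 249) in cKO, a ratio of 2.62 (2.49 to 2.74). Of the 8 genes, 1 was past the size rule as higher and 2 as lower, where 12.7% of all measured features were higher and 5.08% lower. Because this contrast chose the genes, nothing is read from that count. The median log2 ratio over the 8 genes was 0.13, beside 0.16 over all measured features.

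The Rap1 GTPases, on which RasGRP2 acts, were not lower. In the CD3+ Cd8b1-negative T cells, Rap1a was at 209 CPM in the control library and 261 CPM in cKO, a ratio of 1.25 (1.20 to 1.29). Rap1b was at 257 and 382 CPM, a ratio of 1.48 (1.44 to 1.53), just short of the threshold of 1.5 and past it under 4 of 10 other settings. Both intervals lie above 1, so the 2 GTPases had higher CPM in the cKO library by less than the size rule asks.

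Among the actin regulators other than Gmfg, no gene passed the size rule in these T cells. Gmfb, the paralogue of Gmfg, was at 40.7 CPM in the control library and 44.9 CPM in cKO, a ratio of 1.10 (1.01 to 1.20). Coro1a was at 1225 and 902 CPM, 1.36-fold lower in cKO, and was lower under each of the 10 other settings. Cfl1 was at 1155 and 1253 CPM, a ratio of 1.08 (1.07 to 1.10), but its direction turned under 2 scalings, with log2 ratios of -0.05 and -0.02. Gmfg was thus the 1 actin regulator of the set past the size rule in this class.

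Markers of other cell types differed between the libraries in the same T cells. All 8 epithelial markers were detected in both libraries and summed to 28.6 CPM in control and 438 CPM in cKO, and the 10 B cell markers summed to 108 and 377 CPM. The 5 erythroid markers summed to 219 and 1.55 CPM, and the 10 T cell markers to 5432 and 4600 CPM. Their part in the ratios was not tested. In cells with no UMI of Cd79a, Ncr1 or Epcam, the log2 ratios were -2.67 for Rasgrp2 and -2.66 for Gmfg, and in the whole class they were -2.37 and -2.45.

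**Figure D1:**
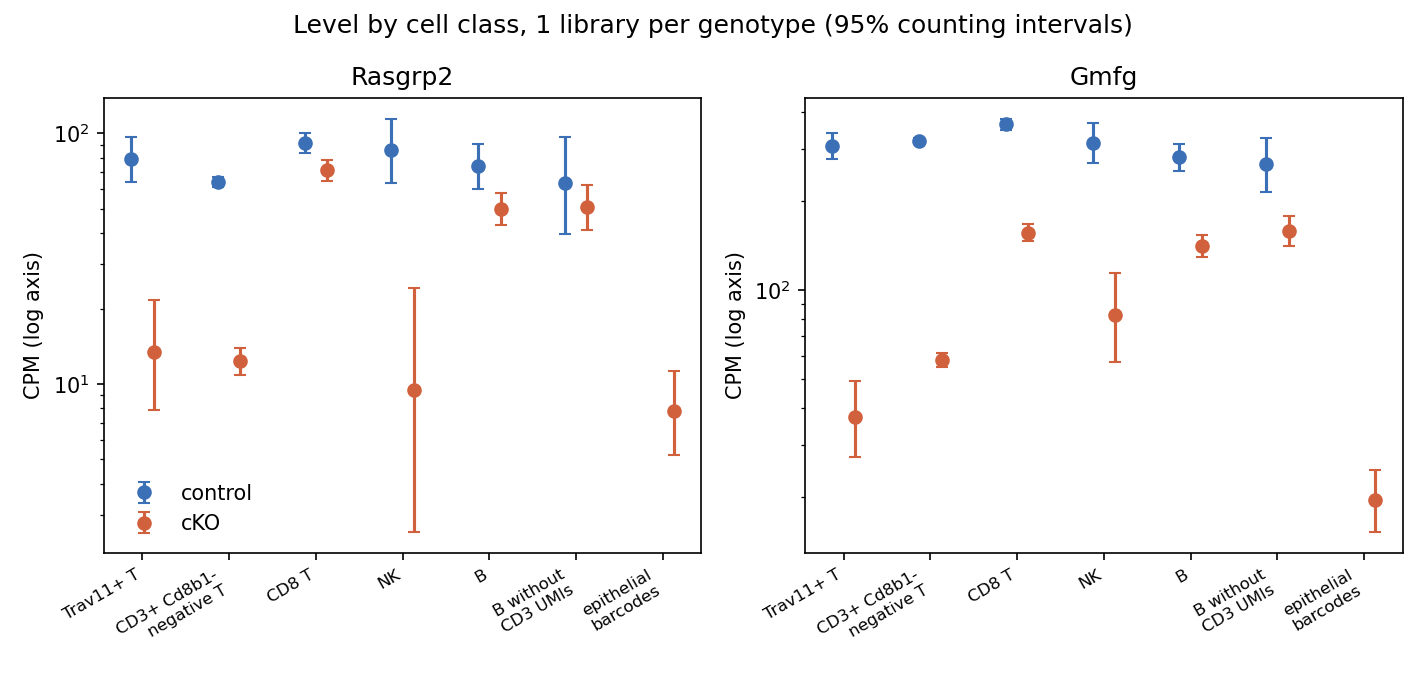
Levels of Rasgrp2 and Gmfg (CPM, log axes with different ranges) in each cell class of the control and cKO libraries, in B cells without a CD3 UMI and, for cKO alone, in the epithelial barcodes, with points for the summed level and bars for exact 95% Poisson intervals. In NK cells Rasgrp2 lies at 86.1 CPM for control and 9.43 CPM for cKO, whereas in B cells without CD3 the intervals of the libraries overlap.

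The Trav11+ T cells, those with the receptor segment of invariant NKT cells, showed the same order. Of these cells, 92.7% in control and 93.3% in cKO were also CD3+ Cd8b1-negative T cells, so the 2 classes are not independent. Rasgrp2 was at 79.1 CPM in the control library and 13.5 CPM in cKO, from 97 and 17 UMIs, 5.74-fold lower (3.49 to 10.5). Gmfg was at 307 and 37.2 CPM, from 377 and 47 UMIs, 8.18-fold lower (6.09 to 11.4). Rasgrp1 was at 87.3 and 239 CPM, a ratio of 2.73 (2.19 to 3.45). Here too 1 gene was past the size rule as higher and 2 as lower, where 16.1% of 6159 features were higher and 7.66% lower. The other 5 genes ranged from 1.34-fold lower for Coro1a to a ratio of 1.48 for Rap1b. The size of the Rasgrp2 difference rested on few UMIs: its log2 ratio, -2.52, reached -4.18 in cells with no UMI of another lineage, and that of Gmfg moved from -3.03 to -3.84 when every cell weighed the same.

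In CD8 T cells, the Rasgrp2 levels of the libraries lay closer together. The gene was at 91.6 CPM (83.6 to 100.2) in the control library and 71.3 CPM (64.7 to 78.4) in cKO, only 1.28-fold lower (1.12 to 1.47), short of the size rule. Gmfg was at 363 and 156 CPM, 2.32-fold lower (2.15 to 2.51), and Rasgrp1 was at 83.6 and 162 CPM, a ratio of 1.94 (1.73 to 2.18). Of the 8 genes, Rasgrp1 was past the size rule as higher and Gmfg as lower, where 22.3% of features were higher and 6.29% lower. The Rasgrp2 ratio in CD8 T cells kept its direction under 10 of 11 other settings, but its size varied. Its log2 value was -0.36, 0.031 when each cell was thinned to 1500 UMIs, and -0.66 without mitochondrial and ribosomal protein UMIs in the total. The last setting put Rasgrp2 past the size rule, as did median-ratio scaling. The other 5 genes lay between ratios of 0.921 for Coro1a and 1.48 for Rap1b. Whether CD8 T cells differ from CD3+ Cd8b1-negative T cells in Rasgrp2 was not tested.

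NK cells, which are lymphocytes without a T cell receptor, had the 2 genes at low cKO levels as well. Rasgrp2 was at 86.1 CPM (63.2 to 114) in the control library and 9.43 CPM (2.57 to 24.1) in cKO, from 47 and 4 UMIs, 8.20-fold lower (3.34 to 34.9). Gmfg was at 315 and 82.5 CPM, from 172 and 35 UMIs, 3.78-fold lower (2.64 to 5.66). In both cases the intervals of the libraries do not meet. Both genes remained past the size rule under all 10 other settings, with log2 ratios of -3.86 to -2.10 for Rasgrp2 and -2.0 to -1.52 for Gmfg.

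Beyond these 2 genes, the NK class had lower Coro1a and Gmfb, but not lower Cfl1, and no higher Rasgrp1. Coro1a was at 1014 CPM in the control library and 596 CPM in cKO, 1.70-fold lower (1.46 to 1.98). Gmfb was at 78.7 and 30.6 CPM, from 43 and 13 UMIs, 2.50-fold lower (1.36 to 5.21), and lost the size rule when cells were thinned or the deepest 5% were left out. Rasgrp1 was at 67.7 and 68.3 CPM, a ratio of 1.01 (0.598 to 1.69). No gene of the 8 was past the size rule as higher and 4 were as lower, where 7.13% of features were higher and 9.78% lower. Rap1a, Rap1b and Cfl1 had ratios of 0.887, 1.23 and 1.20.

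The NK markers were at close levels in both libraries, 9 of 9 detected and summed to 17832 CPM in control and 17868 CPM in cKO. The T cell markers, some of which NK cells also express, summed to 1998 CPM with 10 of 10 detected in control and to 1018 CPM with 9 of 10 detected in cKO, where Cd5 was at 0. The epithelial markers summed to 16.5 and 789 CPM, with 2 and 8 of 8 detected. In NK cells with no Epcam or Cd79a UMI, 100 in control and 43 in cKO, the log2 ratios were -2.92 for Rasgrp2 and -2.0 for Gmfg.

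In B cells, both genes were lower by smaller factors. Gmfg was at 282 CPM (253 to 313) in the control library and 141 CPM (129 to 153) in cKO, 2.00-fold lower (1.74 to 2.29). Rasgrp2 was at 74.0 and 50.1 CPM, 1.48-fold lower (1.14 to 1.91), just short of the size rule and past it under 4 of 11 other settings, with log2 ratios from -0.65 to -0.093. Coro1a was at 1187 and 811 CPM and Cfl1 at 1191 and 819 CPM, ratios of 0.683 (0.642 to 0.727) and 0.687 (0.646 to 0.731). Rasgrp1 was at 53.3 and 79.0 CPM, a ratio of 1.47, and Gmfb and both Rap1 genes had intervals that include 1. None of the 8 genes was past the size rule as higher and 1, Gmfg, was as lower, where 15.1% of features were higher and 5.49% lower.

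Many cells of the B class held T cell transcripts, and more of them in control. A UMI of CD3 was found in 253 of 308 control and 170 of 481 cKO cells of the class, and the summed T cell markers were at 2127 CPM in the control library and 1020 CPM in cKO. Among the 55 control and 311 cKO cells with no CD3 UMI, where those markers were at 324 and 81.9 CPM, Gmfg was at 266 and 158 CPM, 1.69-fold lower (1.31 to 2.13). In the same cells Rasgrp2 was at 63.6 and 50.8 CPM, from 22 and 93 UMIs, with an interval that spans equality (1.27-fold lower, 0.749 to 2.01). Coro1a and Cfl1 were past the size rule as lower in these cells, with ratios of 0.621 (0.557 to 0.695) and 0.596 (0.536 to 0.666). With a gate of 3 B cell UMIs and no CD3, a setting chosen after seeing the data, the log2 ratio of Rasgrp2 was -0.093. Under that gate Gmfg was 1.51-fold lower (1.16 to 1.93) and Cfl1, with a ratio of 0.593, stayed past the size rule. The Coro1a ratio of 0.699 fell short of it. The epithelial markers were at 2.89 CPM in the control library and 3998 CPM in cKO cells without CD3, and their part in these values was not tested.

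So the lower Gmfg level was measured in all 5 classes, past the size rule in each, and the lower Rasgrp2 level was past it in Trav11+ T, CD3+ Cd8b1-negative T and NK cells, with the call in B and CD8 T cells depending on the setting. The lower levels were thus not limited to barcodes with CD3, for both genes in NK cells. In barcodes of the B class without CD3, the CPM of Gmfg was lower too, as were those of Coro1a and Cfl1. The cKO barcodes of this group also carried epithelial markers, whose part was not tested. With the gate of 3 B cell UMIs, those markers summed to 229 CPM, and Gmfg remained lower. After thinning to 1500 UMIs, Gmfg was held by 31.4% (16.9 to 49.3) of control and 19.2% (14.2 to 25.0) of cKO barcodes without CD3. Under the gate of 3 UMIs, the shares were 30.3% (15.6 to 48.7) and 23.0% (16.7 to 30.3). In both comparisons the intervals overlap. Fewer expressing cells and less RNA per cell cannot be told apart in the summed counts.

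**Figure D2:**
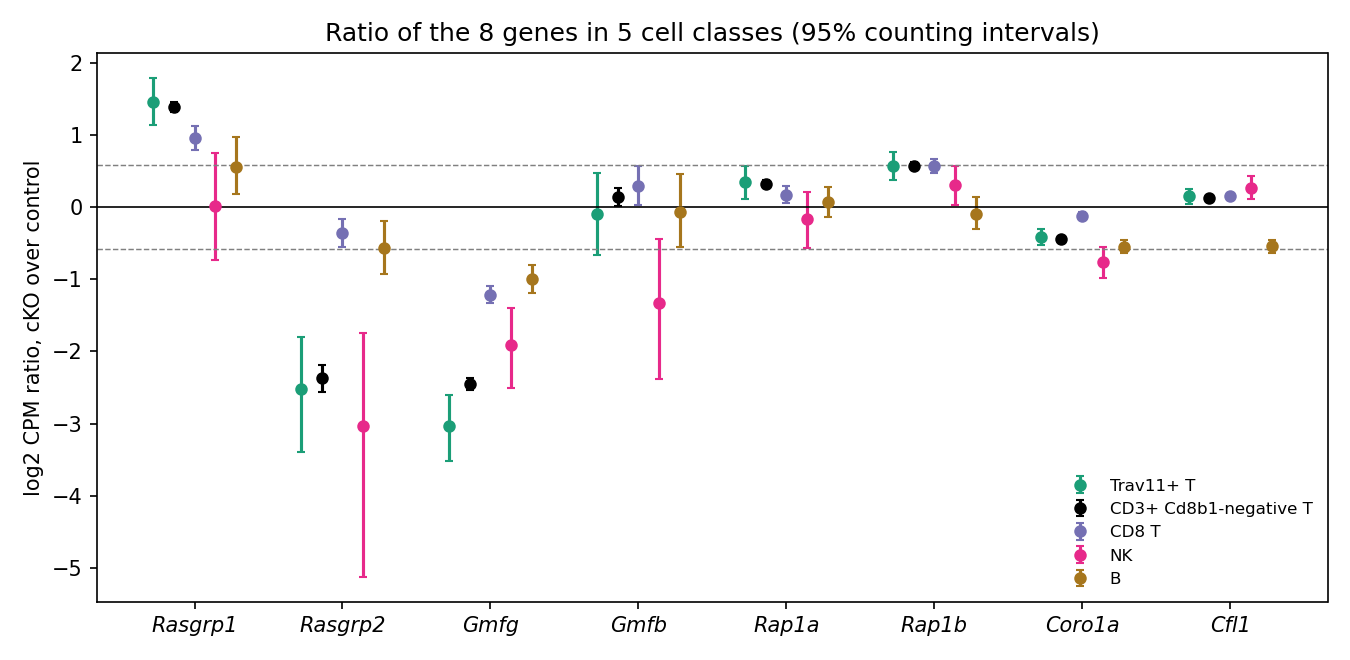
Log2 ratio of cKO to control CPM for the 8 genes in 5 classes, with bars for exact 95% intervals of counting error and dashed lines at the 1.5-fold threshold of the size rule. Gmfg lies below the lower line in each class, and Rasgrp2 lies below it in Trav11+ T, CD3+ Cd8b1-negative T and NK cells.

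The T cells of the 2 libraries did not hold the same subsets, so levels were also compared within subsets set by 1 UMI of a marker. Among Klrb1c+ T cells, which carry the NK1.1 gene, Rasgrp2 was at 64.8 CPM in the control library and 6.25 CPM in cKO, 10.1-fold lower (6.52 to 17.6). In Izumo1r+ Klrb1c-negative T cells it was at 51.9 and 16.7 CPM, 3.09-fold lower (2.29 to 4.30). Gmfg was 6.90-fold lower (5.80 to 8.34) in the first subset and 2.37-fold lower (2.13 to 2.64) in the second. Both genes were also lower in gamma-delta (Trdc+) and dividing (Mki67+) T cells, where Rasgrp2 was 3.17-fold and 3.82-fold lower and Gmfg 3.49-fold and 3.03-fold lower.

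A subset with a UMI of Fxyd7, a regulator of the sodium pump, held 1487 cKO and 2 control cells, so only its cKO levels are given. Rasgrp2 was at 6.52 CPM (5.09 to 8.22) and Gmfg at 29.5 CPM (26.3 to 32.9) in these cells, while Rasgrp1 was at 281 CPM. In T cells with Lgals3 and no Fxyd7, 1338 control and 1011 cKO cells, Rasgrp2 was still 5.38-fold lower and Gmfg 5.32-fold lower.

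CD8 T cells split by Gzmk, a granzyme gene, differed in makeup between the libraries: 67 of 907 control but 416 of 621 cKO cells held a Gzmk UMI. In Gzmk+ cells, Rasgrp2 was at 94.1 and 79.2 CPM, 1.20-fold lower (0.857 to 1.62), and Gmfg at 448 and 124 CPM, 3.62-fold lower (3.08 to 4.23). In Gzmk-negative cells, Rasgrp2 was at 91.3 and 51.0 CPM, 1.78-fold lower (1.42 to 2.29), and Gmfg at 354 and 239 CPM, 1.48-fold lower (1.32 to 1.65). Rasgrp2 thus had its larger ratio in the Gzmk-negative cells and Gmfg in the Gzmk+ cells, a contrast that was not tested. In Rag1+ CD8 T cells, 38 in control and 52 in cKO, Rasgrp2 was at 69.2 and 113 CPM, from 9 and 28 UMIs. The interval of its ratio ran from 0.748 to 3.93, and Gmfg was at 1007 and 866 CPM, 1.16-fold lower (0.929 to 1.45). Summed NK cell markers of the CD8 class were at 637 CPM in the control library and 10480 CPM in cKO.

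**Figure D3:**
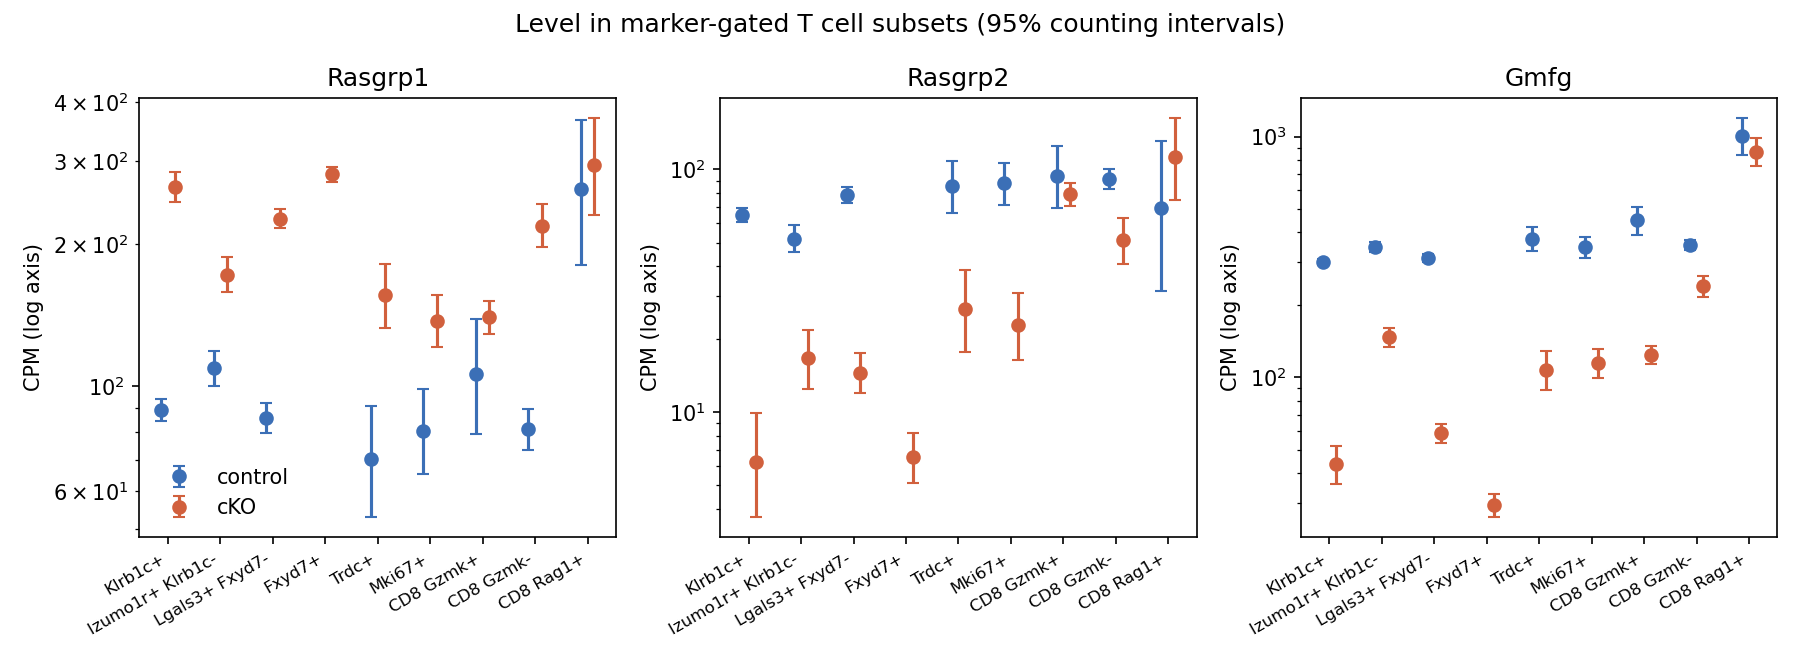
Levels of Rasgrp1, Rasgrp2 and Gmfg (CPM, log axis) in T cell subsets of the control and cKO libraries, with bars for exact 95% Poisson intervals. Fxyd7+ cells are drawn for cKO alone and have Gmfg at 29.5 CPM; in CD8 T cells with Gzmk, Rasgrp2 is at 94.1 CPM in the control library and 79.2 CPM in cKO.

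Because cKO cells held more UMIs, shares of cells with a UMI were compared after thinning each cell to 1500 UMIs, which left out 1907 control and 109 cKO CD3+ Cd8b1-negative T cells. Gmfg was then found in 38.6% (37.2 to 40.1) of control and 5.55% (4.74 to 6.45) of cKO cells, against 59.7% and 18.0% without thinning. Rasgrp2 was found in 8.96% (8.13 to 9.85) and 1.33% (0.940 to 1.81), and without thinning in 19.9% and 5.75%. Rasgrp1 was found in 12.9% and 29.8%. At the same depth, the epithelial barcodes of the cKO library gave 2.59% (1.54 to 4.06) for Gmfg and 0.862% (0.317 to 1.87) for Rasgrp2. Without thinning, at a median of 1395 UMIs, they gave 4.30% and 1.63%. Gmfg in the thinned cKO CD3+ Cd8b1-negative T cells was above its epithelial share, while the intervals of the Rasgrp2 shares overlapped.

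The Fxyd7+ cKO cells had Gmfg in 2.53% and Rasgrp2 in 0.820% of thinned cells, both inside the epithelial intervals. Without thinning, at a median of 6778 UMIs, the shares were 10.3% (8.79 to 11.9) for Gmfg and 3.50% (2.62 to 4.56) for Rasgrp2, above the epithelial ones. In CPM, the epithelial barcodes held 19.6 (15.3 to 24.7) for Gmfg and 7.83 (5.20 to 11.3) for Rasgrp2, while the Fxyd7+ cells held more of Gmfg, 29.5 CPM, and a Rasgrp2 level of 6.52 CPM inside that interval. The epithelial barcodes held 28 Rasgrp2 and 6 Rasgrp1 UMIs, so Rasgrp2 made up 82.4% (65.5 to 93.2) of the pair there. That is far from its 4.83% share in the cKO CD3+ Cd8b1-negative T cells, so these barcodes do not carry the pair in the ratio of those T cells. Whether the epithelial barcodes can stand for the background of the lymphocytes was not tested. Nor was it tested whether the low Rasgrp2 counts of cKO cells are expression or free RNA.

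In NK cells, 0 of 39 thinned cKO cells had a Rasgrp2 UMI, which by the floor of 3 counts allows a share of up to 7.69% and by the exact interval up to 9.03%. The control share was 11.6% (5.72 to 20.3), and the intervals overlap. Without thinning, 4 of 53 cKO cells, or 7.55% (2.09 to 18.2), and 28.6% (20.2 to 38.2) of control cells had one, although the cKO cells were deeper, with medians of 8583 and 5074 UMIs.

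Thinned cells also showed how the UMIs were spread. No Gmfg UMI was found in 61.4% of control and 94.5% of cKO CD3+ Cd8b1-negative T cells. In control, Gmfg was found in 40.2% of 388 cells with a Rasgrp2 UMI and in 38.5% of 3941 cells without one. In cKO, the shares were 15.8% (6.02 to 31.3) of 38 cells and 5.41% of 2829 cells. Among the cKO cells, those with an Ets1 UMI had Gmfg in 7.26% (5.34 to 9.59) and those without in 5.07% (4.20 to 6.06), with overlapping intervals. In cKO CD8 T cells, the same split gave 26.6% (19.8 to 34.3) and 16.5% (13.2 to 20.2) for Gmfg and 16.9% (11.3 to 23.8) and 8.03% (5.71 to 10.9) for Rasgrp2. Control CD8 T cells had the same direction, with 45.7% and 37.9% for Gmfg and 13.5% and 9.77% for Rasgrp2. A cell without a UMI may still express the gene, so this split does not sort cells by deletion.

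The balance of UMIs within the gene pairs was also compared between the libraries. Rasgrp2 made up 40.8% (39.3 to 42.3) of the UMIs of Rasgrp1 and Rasgrp2 together in control and 4.83% (4.29 to 5.43) in cKO CD3+ Cd8b1-negative T cells. In NK cells, the share was 56.0% (44.7 to 66.8) and 12.1% (3.40 to 28.2), and in CD8 T cells 52.3% and 30.5%. Gmfg made up 88.7% of the UMIs of Gmfg and Gmfb in control and 56.4% in cKO CD3+ Cd8b1-negative T cells, and 90.5% and 77.0% in CD8 T cells. In NK cells, where Gmfb was lower as well, the intervals overlapped at 80.0% (74.0 to 85.1) and 72.9% (58.2 to 84.7). In B cells the Gmfg share was 88.5% (85.0 to 91.5) in control and 80.1% (76.8 to 83.1) in cKO. Among B cells with no CD3 UMI it was 87.6% (79.8 to 93.2) and 81.2% (76.8 to 85.1), with overlapping intervals. Rap1b made up 55.1% and 59.4% of Rap1 UMIs in CD3+ Cd8b1-negative T cells, a far smaller shift. These are shares of counts within a library, and they do not compare protein levels.

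**Figure D4:**
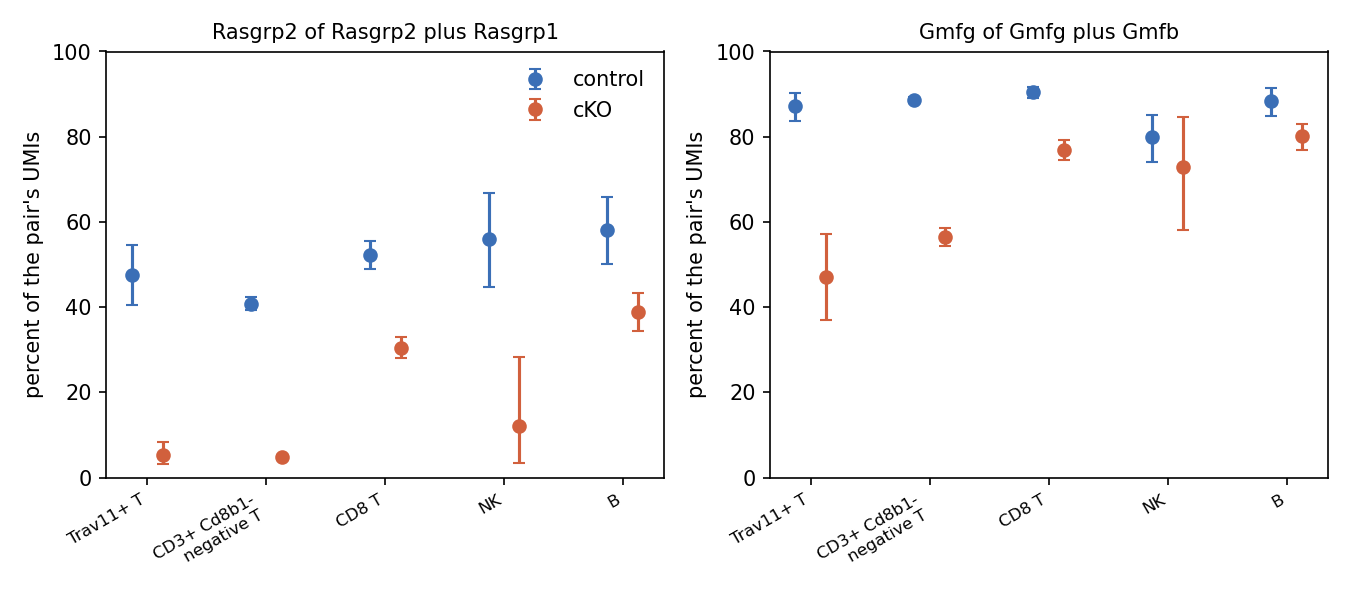
Share of the summed UMIs of a gene pair, in percent, held by Rasgrp2 (of Rasgrp1 and Rasgrp2, left) and Gmfg (of Gmfg and Gmfb, right) in each class and library, with bars for exact 95% binomial intervals. In CD3+ Cd8b1-negative T cells the Rasgrp2 share is 40.8% in control and 4.83% in cKO.

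The wider pathway was followed in 7 lists of related genes in CD3+ Cd8b1-negative T cells, against a median log2 ratio of 0.16 over all features. Among the Ras and Rap exchange factors and GTPase-activating proteins, 3 of 10 measured genes were past the size rule as higher and 0 as lower. Sipa1l1, a Rap GTPase-activating protein, was at 27.4 CPM in the control library and 67.7 CPM in cKO, a ratio of 2.46, and the Ras GTPase-activating proteins Rasa3 and Rasa1 had ratios of 2.18 and 1.81. Of 8 measured Ras family GTPases, 1 was higher, Rap2c with a ratio of 1.60.

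Among the Rap effectors and integrin adhesion genes, 2 of 14 were past the rule as higher and 0 as lower, with a median of 0.03. Itgb1, the beta 1 integrin, was at 175 and 571 CPM, a ratio of 3.26, and Itga4, its alpha 4 partner, was at 67.6 and 134 CPM, a ratio of 1.98. In the diacylglycerol and ERK list, 2 of 16 were higher and 1 lower. Dgka, the kinase that removes diacylglycerol, was at 64.4 and 29.4 CPM, 2.19-fold lower, while Spry2, an inhibitor of the ERK pathway, had a ratio of 1.74.

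In the Arp2/3 list, 0 of 20 genes were past the rule in either direction, with a median of 0.28. In the cofilin, coronin and filament turnover list, 2 of 19 were higher and 0 lower, namely destrin (Dstn), a relative of cofilin, with a ratio of 3.02, and Coro1c, with a ratio of 1.59. In the list of actins and cortical filament proteins, 4 of 16 were higher and 0 lower: Vim at 2.51, Diaph1 at 1.87, Actg1 at 1.57 and Rdx at 1.55. Of all these genes, Gmfg and Rasgrp2 excepted, only Dgka was past the size rule as lower in these cells. Over all measured features, 12.7% were higher and 5.08% lower.

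**Figure D5:**
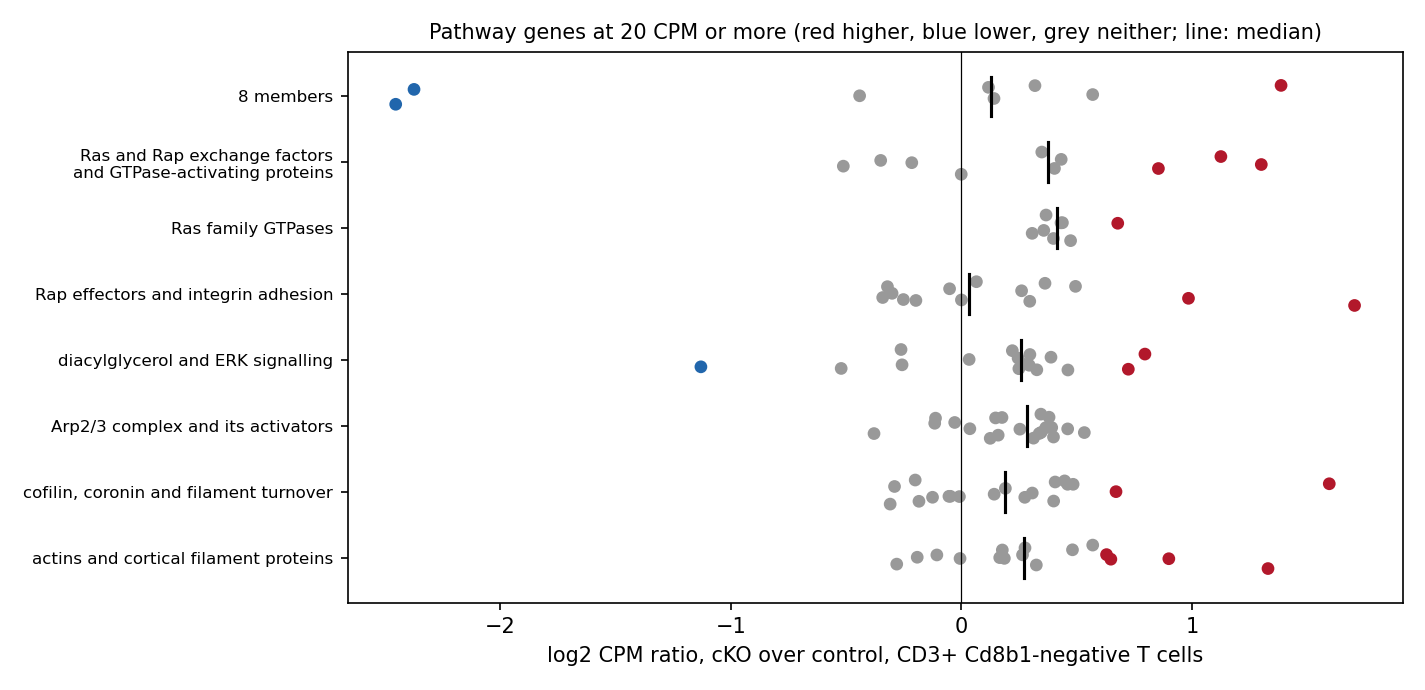
Log2 ratio of cKO to control CPM in CD3+ Cd8b1-negative T cells for the 8 genes (top row) and for each measured gene of the pathway lists, with 1 point per gene, red for higher and blue for lower by the size rule, grey for neither, and a black line at each row's median; vertical scatter within a row has no meaning. The Arp2/3 list has no gene past the size rule, and Itgb1 is the highest gene of the adhesion list, with a ratio of 3.26.

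Over the 10 levels given by 5 classes and 2 libraries, on the log2(CPM + 10) scale, Gmfg was the gene most like Rasgrp2 among 7089 genes, with a Pearson r of 0.919, followed by Rgcc (0.909) and Gpi1 (0.900). The genes most like Gmfg were Traf4 (0.966), Maml2 (0.957) and Limd2 (0.944). With CPM + 1 instead, Rgcc (0.912) ranked above Gmfg (0.909) in likeness to Rasgrp2. Both genes were chosen as lower in cKO, and each library gives 5 levels, so a high r between them was set in advance. These levels also share libraries and cells, so the values only describe the likeness.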

How the data were processed

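YFP+ thymus cells of 2 genotypes were profiled in 1 single-cell library each, pooled from 2 mice. The authors deposited whole-number UMI counts per gene and barcode, made from 3′ libraries per the labels' protocols. The submitters' processing notes name Cell Ranger 2.1.1 and mm10, while the matrix headers give software version 3.0.0, a difference that was not resolved. The sources used here name neither the annotation nor the strand settings.

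Kept cells had at least 500 genes and no more than 10% mitochondrial UMIs, and doublets were not removed. Counts were summed over each class and divided by its UMIs to give CPM (scipy 1.17.1 and numpy 2.4.6 in Python 3.11.15). Ratios added 0.5 UMIs to both sums and have exact conditional binomial 95% intervals, levels have Poisson intervals and shares Clopper-Pearson intervals. They cover counting error only. With 1 library per genotype no test was made. Measured features reached 20 CPM in either library. Thinning drew 1500 UMIs per cell, and a count of 0 was set against 3 counts.

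The 8 genes and all lists were chosen with earlier results of these data known. Named besides them were Ets1, up to 4 genes per list with the largest log2 ratios past the size rule, the 3 genes most like Rasgrp2 and Gmfg, neighbouring genes and class markers. A gene that this rule names is not reported here. The alternatives tried changed the cell filter, gates, scaling, cell weighting, thinning depth and pseudocount.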

Additional observations from a re-analysis of the deposited data

Results flagged for a closer look

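For Gmfb and Cfl1, the ratios of cKO to control had opposite signs in 2 classes, with each interval on its own side of 0. The log2 ratio of Gmfb was 0.29 (0.02 to 0.56) in CD8 T cells and -1.32 (-2.38 to -0.44) in NK cells. That of Cfl1 was 0.27 (0.11 to 0.43) in NK cells and -0.54 (-0.63 to -0.45) in B cells. With 1 library per genotype neither difference was tested. The sign was not stable in either case: Gmfb in CD8 T cells was at -0.01 without mitochondrial and ribosomal protein UMIs in the total, and Cfl1 in NK cells was at -0.03 when each cell was thinned to 1500 UMIs or weighed the same.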

How the results depend on the processing

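No paired analysis was possible because each genotype had 1 library. No log2 ratio of Rasgrp2 or Gmfg past the size rule changed sign under any alternative, and both stayed past the size rule in Trav11+ T, CD3+ Cd8b1-negative T and NK cells under all 10, and Gmfg also in CD8 T and B cells under all 11. Calls with equal cell weights used fold and level alone, without an interval. The cause of the shifts given next was not tested. For Gmfg in CD3+ Cd8b1-negative T cells, the log2 ratio of -2.45 became -2.84 with thinning, -2.74 with equal cell weights, -2.62 without mitochondrial and ribosomal protein UMIs in the total, -2.60 with median-ratio scaling, -2.54 with a gate of 2 UMIs, -2.66 in cells of 1 lineage and -2.68 without the deepest 5% of cells. In CD8 T cells, -1.21 became -0.99 with thinning, -1.51 and -1.45 under the same 2 scalings, and -1.46 without Rag1+ cells. In Trav11+ T cells, -3.03 became -3.84 with equal weights and -3.76 without the deepest cells. In B cells, -1.0 became -0.70 with at most 5% mitochondrial UMIs, -1.25 with equal weights, -0.67 with a gate of 2 UMIs, -0.60 in 1 lineage and -0.60 with a gate of 3 B cell UMIs. For Rasgrp2 in CD3+ Cd8b1-negative T cells, -2.37 became -2.70 with thinning and -2.67 in 1 lineage. In Trav11+ T cells, -2.52 became -3.52 with thinning, -3.56 with equal weights, -4.18 in 1 lineage and -3.96 without the deepest cells. In CD8 T cells, -0.36 became 0.031 with thinning, -0.16 with equal weights, and -0.66 and -0.60 under the 2 scalings. In B cells, -0.57 became -0.093 with the gate of 3 UMIs, and it passed the size rule as lower with every barcode (-0.61), equal weights (-0.59), median-ratio scaling (-0.65) and without the deepest cells (-0.59). The gate of 3 UMIs and the removal of Rag1+ cells were chosen after seeing the data.

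The number of the 8 genes past the size rule as higher in B cells, 0, was 1 with at most 5% mitochondrial UMIs or a gate of 2 UMIs. In CD3+ Cd8b1-negative T cells, 1 higher gene became 2 with equal weights, a gate of 2 UMIs, 1 lineage or without the deepest cells, and in Trav11+ T cells 1 became 2 with thinning, equal weights, 1 lineage or without the deepest cells. The 1 lower gene in B cells became 3 with every barcode or thinning, 4 with equal weights, median-ratio scaling or without the deepest cells, and 2 with a gate of 2 UMIs, 1 lineage or the gate of 3. The 1 lower gene in CD8 T cells became 2 under either scaling. The 2 lower genes in CD3+ Cd8b1-negative T and Trav11+ T cells became 3, with Coro1a at -0.61 and -0.60, without mitochondrial and ribosomal protein UMIs in the total. Depth limits the NK class most, with 4 cKO UMIs of Rasgrp2.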
